A study of Homo sapiens with 4 samples.

Results

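Sestrins, DDIT4 and the core genes of mTORC1 control were followed in MDA-MB-231, a line of human breast cancer cells that lack the hormone receptors. The 10 genes are SESN1, SESN2, SESN3, DDIT4, TSC1, TSC2, RHEB, MTOR, RPTOR and RICTOR, taken by symbol from a table of 20263 Ensembl gene IDs. All 10 were found and all 10 passed the filter on low counts, among 13667 genes tested. The cells received Rib_CA for 24 h, a compound that the series title describes as derived from ribociclib, an inhibitor of the kinases CDK4 and CDK6, or they received DMSO, the solvent control. The dose of Rib_CA is not given in the sources used here. Each group holds 2 libraries of messenger RNA, and no label says that they are separate cultures; p-values therefore reflect the spread between libraries, which may be technical.

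mTORC1 is the protein kinase complex that sets protein synthesis and cell growth by the supply of amino acids, energy and growth factors. Its kinase MTOR and its scaffold RPTOR act on the lysosome surface when the Rag GTPases bring them there and the small GTPase RHEB switches them on. The TSC1 and TSC2 proteins shut RHEB off. Sestrins hold mTORC1 down through the GATOR complexes, SESN2 as a sensor of leucine, while DDIT4, also called REDD1, acts through TSC1 and TSC2. RICTOR is the scaffold of the other MTOR complex, mTORC2. SESN2 and DDIT4 are known stress genes that the factor ATF4 can switch on, DDIT4 is also a known target of HIF1A and SESN3 of FOXO factors.

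The start regions of the 2 genes that passed the test below, and of SESN3, which had the opposite sign, are shown because these genes moved most. Each window runs from 250 bases before to 50 bases after the RefSeq start (GRCh38.p14), 5′ to 3′ on the gene's strand, at chr1:28259268-28259567 for SESN2 (plus strand), chr10:72273674-72273973 for DDIT4 (plus strand) and chr11:95232426-95232725 for SESN3 (minus strand). Capitals mark matches, on either strand, to CCAAT, a box bound by NF-Y (on the minus strand it reads in reverse complement), and to ACGTG, the core bound by hypoxia-inducible factors.
SESN2: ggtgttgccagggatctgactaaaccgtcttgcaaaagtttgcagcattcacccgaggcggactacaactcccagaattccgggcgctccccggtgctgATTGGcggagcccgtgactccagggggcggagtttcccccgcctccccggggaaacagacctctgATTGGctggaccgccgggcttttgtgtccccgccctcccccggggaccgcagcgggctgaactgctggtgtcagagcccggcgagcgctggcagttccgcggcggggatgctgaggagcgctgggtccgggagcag
DDIT4: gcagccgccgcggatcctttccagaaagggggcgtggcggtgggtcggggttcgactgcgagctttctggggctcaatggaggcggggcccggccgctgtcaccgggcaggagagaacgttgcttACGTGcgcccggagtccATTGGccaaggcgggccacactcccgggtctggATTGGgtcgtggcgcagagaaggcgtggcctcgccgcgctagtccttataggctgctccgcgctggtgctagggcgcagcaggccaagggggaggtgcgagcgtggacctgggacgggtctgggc
SESN3: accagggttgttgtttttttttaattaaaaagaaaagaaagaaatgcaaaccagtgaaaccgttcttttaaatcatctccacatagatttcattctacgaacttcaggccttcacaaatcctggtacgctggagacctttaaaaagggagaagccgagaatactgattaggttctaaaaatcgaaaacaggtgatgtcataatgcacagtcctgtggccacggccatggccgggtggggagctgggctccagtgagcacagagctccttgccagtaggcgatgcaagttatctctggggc
SESN2 and DDIT4 each held 2 CCAAT matches, and DDIT4 held 1 ACGTG match at -125 to -121 from the start. The SESN3 window held neither. Over 35116 promoter windows of the same length, 34.6% held CCAAT and 21.4% held ACGTG. Both motifs also occurred in genes of the 10 that did not pass: MTOR held 3 CCAAT matches, and RICTOR and RHEB held both motifs. The letters TGATGNAA, the core of an ATF4 response element, were in 3.62% of all windows and, among the 10 genes, in TSC2 alone. Sites of ATF4 outside the windows or with other letters were not searched. Of genes treated below, CHAC1, SLC3A2 and PIK3R1 held a match, while DDIT3 and TRIB3, among others, held none. TGACGTCA, the CRE (1.85% of all windows), and GTAAACA, a FOXO site (3.42%), were in none of the 13 windows that cover the 10 genes. CACGTG, an E-box that contains ACGTG (7.26%), was in 1 of them, the window of TSC2, where it overlaps the TGATGNAA match.

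The libraries held 38865103 and 37772266 counts in Rib_CA and 34774542 and 37754168 in DMSO. At these depths the floor of 3 counts lay at 0.0772 to 0.0863 counts per 1000000 (CPM), far under the level of any of the 10 genes, and floors and intervals from counts cover counting error only. Levels below are CPM scaled by TMM, which sets the libraries to a common composition. Transcripts of the mitochondrial genome took 5.78% and 3.13% of counts in Rib_CA and 8.68% and 21.7% in DMSO, and leaving these genes out (2.80% of all genes then higher and 5.48% lower) changed no call among the 10. The cell line's markers VIM, CD44, EGFR, CAV1 and AXL were present at 242 CPM or more in every library, and CDH1 lay at or below 0.0766 CPM. ESR1 lay at 0.102 to 0.663 CPM and PGR at 0.372 to 1.76 CPM. Of the other markers listed as absent or low, ERBB2 lay at 58.0 to 87.1 CPM, GATA3 at 3.04 to 21.7 CPM and EPCAM at 9.50 to 12.2 CPM, so these 3 transcripts were present. The tested share called by edgeR's quasi-likelihood test was 7.13% of genes (275 higher and 699 lower at a Benjamini-Hochberg adjusted p under 0.05), and 260 higher and 328 lower (1.90% and 2.40%) with total-count scaling. Under that scaling the median gene stood at a log2 fold change of 0.23, against 0.03 with TMM.

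In Rib_CA-treated cells SESN2 rose 8.11-fold and DDIT4 rose 6.16-fold, the 2 genes of the 10 that passed. Called as higher were 2 of 10, where 2.01% of all genes tested were called as higher. None of the 10 was called as lower by edgeR, where 5.11% of all genes were. Unadjusted, SESN3 and RICTOR also lay under 0.05, both lower, as did 14.7% of all genes in that direction. DESeq2 called both as lower, with 7.63% of all genes called higher and 11.1% lower, and limma-voom called neither, with 1.57% higher and 4.67% lower. TSC1, TSC2, RHEB, MTOR, RPTOR and SESN1 had group means within about 1.25-fold of each other. The 2 groups did not overlap for 5 of the 10 genes, where 58.8% of all genes tested were apart in this way: 2 lay above (30.4% of all genes) and 3 below (28.4%). The smallest two-sided p that an exact permutation of 2 against 2 libraries allows is 0.333, so calls rest on the fit across all genes. How many genes pass also depends on which library is left out: leaving out Rib_CA 1 left 8.84% of genes higher and 11.7% lower, and leaving out Rib_CA 2 left 8.22% higher and 11.6% lower. The shares fell to 0.256% higher and 0.975% lower when DMSO 1 was left out, and to 0.377% higher and 2.53% lower when DMSO 2 was. In bulk RNA, fewer transcripts per cell and fewer cells that make them cannot be told apart.

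**Figure D1:**
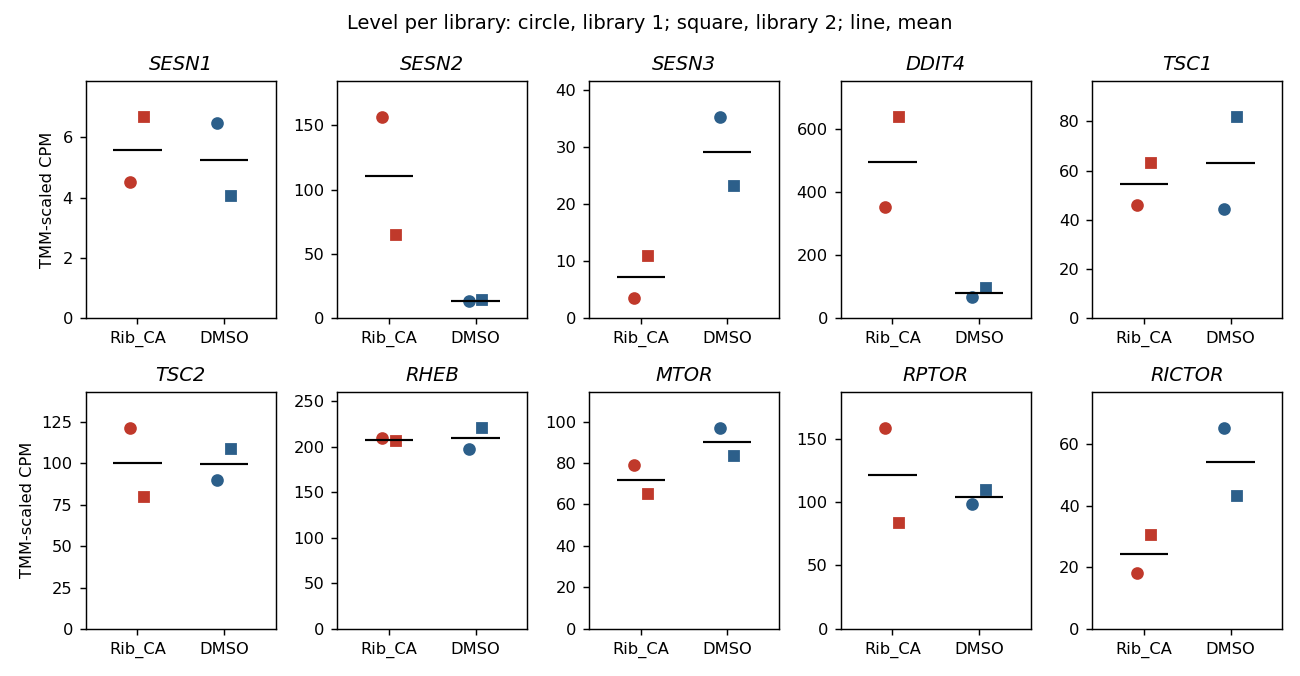
Level of each of the 10 genes in TMM-scaled CPM (vertical axis, from 0) in Rib_CA (red) and DMSO (blue); circles are library 1, squares library 2 and lines group means (n = 2). SESN2 and DDIT4 lie higher and SESN3, MTOR and RICTOR lower in both Rib_CA libraries, while RHEB lies between 198 and 221 CPM in all 4.

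SESN2 (ENSG00000130766, chr1:28259527-28282491, GRCh38) encodes a stress-induced sestrin. It had 156 and 64.7 CPM in the Rib_CA libraries, against 13.4 and 13.8 CPM in the DMSO libraries. Both Rib_CA libraries lay far above both DMSO libraries, and the Rib_CA libraries differed more from each other than the DMSO libraries did. The means were 110 ± 64.7 CPM in Rib_CA and 13.6 ± 0.245 CPM in DMSO (SD, n = 2). This gave a log2 fold change of 3.02 ± 0.46 (SE), with a 95% interval of 1.93 to 4.11 and an adjusted p of 0.0285 in edgeR's quasi-likelihood test. Only 63 of the 13667 genes tested had a larger log2 fold change, as a rank with no test. The call held with each library left out in turn, but without Rib_CA 1 the fold was 4.61. Over the 15 alternatives the adjusted p ran from 5.85e-09 to 0.0803.

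DDIT4 (ENSG00000168209, chr10:72273920-72276036) had 351.7 and 636 CPM in the Rib_CA libraries, against 66.0 and 94.2 CPM in the DMSO libraries. The groups lay apart, and here Rib_CA 2 was the higher of the Rib_CA libraries, whereas SESN2 was higher in Rib_CA 1. The means were 494 ± 201 CPM in Rib_CA and 80.1 ± 20.0 CPM in DMSO (SD, n = 2). The log2 fold change was 2.62 ± 0.39 (SE), with a 95% interval of 1.70 to 3.55 and an adjusted p of 0.0285 in edgeR. Without DMSO 1 the log2 fold change was 2.38 and the call was lost (edgeR adjusted p = 0.0608; range over the 15 alternatives 5.45e-09 to 0.0866).

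SESN3 (ENSG00000149212, chr11:95165513-95232541), the sestrin known as a FOXO target, had 3.50 and 10.99 CPM in the Rib_CA libraries, against 35.3 and 23.2 CPM in the DMSO libraries. Both Rib_CA libraries lay below both DMSO libraries. The means were 7.24 ± 5.30 CPM in Rib_CA and 29.2 ± 8.56 CPM in DMSO (SD, n = 2). SESN3 had a log2 fold change of -2.01 ± 0.56 (SE), with a 95% interval of -3.35 to -0.67, and did not pass in edgeR (adjusted p = 0.0775). It passed in edgeR without Rib_CA 1 (log2 fold change -1.45; adjusted p = 0.0165) and without Rib_CA 2 (-3.06; adjusted p = 0.0110), and in DESeq2 (adjusted p = 0.00210). Of the 15 alternatives 5 passed, and these include the fits with the replicate number as a block, as labelled and crossed. The replicate numbers share only a label, and the crossed block was chosen after seeing the data. In the alternatives that kept all 4 libraries the adjusted p ran from 0.00210 (DESeq2) to 0.195 (edgeR, GC and length offset with the replicate block). Without DMSO 1 the log2 fold change was -1.68.

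SESN1 (ENSG00000080546), a further member of the sestrin family, had 4.52 and 6.67 CPM in the Rib_CA libraries, against 6.46 and 4.07 CPM in the DMSO libraries. The groups overlapped. The log2 fold change was 0.09 ± 0.43 (SE), with a 95% interval of -0.94 to 1.11, so a level up to 2.16-fold higher is within the error (edgeR adjusted p = 0.921).

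Per length, the make-up of the sestrin transcripts differed between the groups. On the scale of CPM per kb of the longest GENCODE transcript, SESN2 made up 96.5% and 86.0% of the summed sestrin level in the Rib_CA libraries, against 41.3% and 52.7% in the DMSO libraries. SESN3 made up 0.780% and 5.28% in Rib_CA, against 39.2% and 32.02% in DMSO. The share of SESN1 was 2.75% and 8.72% in Rib_CA and 19.5% and 15.3% in DMSO. These shares do not depend on how the libraries are scaled, but they are not corrected for GC content (SESN2 59.5%, SESN3 37.1%). With an offset for GC content and transcript length, log2 fold changes were smaller in size, at 2.59 for SESN2 and -1.13 for SESN3. The summed level was 46.9 and 21.8 CPM per kb in Rib_CA, against 9.43 and 7.58 CPM per kb in DMSO, so the sum lay higher in both Rib_CA libraries although SESN3 lay lower. The shares restate the rows of the 3 genes and were not tested.

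**Figure D2:**
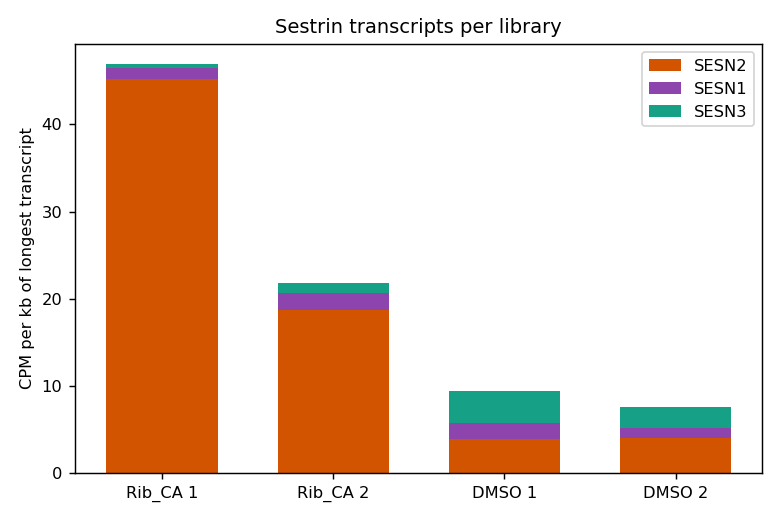
Summed level of the 3 sestrin transcripts in CPM per kb of the longest transcript (vertical axis) in each library (Rib_CA 1 and 2, DMSO 1 and 2), stacked by gene. The orange SESN2 segment fills 96.5% and 86.0% of the Rib_CA bars, against 41.3% and 52.7% of the DMSO bars.

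The TSC genes and RHEB, the brake and the switch of mTORC1, showed no called difference. RHEB had 210 and 206 CPM in the Rib_CA libraries, against 198 and 221 CPM in the DMSO libraries. Its log2 fold change was -0.01 ± 0.25 (SE; 95% interval -0.60 to 0.58; edgeR adjusted p = 0.986). RHEB has processed pseudogenes, and how reads that match several places were counted is not given in the sources used here. TSC2 had 121 and 79.4 CPM in Rib_CA, against 89.8 and 109 CPM in DMSO (log2 fold change 0.01 ± 0.30 SE; 95% interval -0.70 to 0.73). Its Rib_CA libraries lay on both sides of the DMSO libraries. TSC1 had 46.0 and 62.9 CPM in Rib_CA, against 44.3 and 81.7 CPM in DMSO (log2 fold change -0.21 ± 0.37 SE; 95% interval -1.08 to 0.66). The intervals of all 3 genes leave room for changes of either sign. TSC1 shares 1.98% of its exonic bases with GFI1B, and TSC2 shares 3.96% with PKD1 and 2.05% with NTHL1, all on the opposite strand.

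MTOR, the kinase of both complexes, had 79.0 and 64.8 CPM in the Rib_CA libraries, against 96.9 and 83.5 CPM in the DMSO libraries. Both Rib_CA libraries lay below both DMSO libraries by a small margin, and the log2 fold change of -0.33 ± 0.26 (SE; 95% interval -0.95 to 0.29) did not pass (edgeR adjusted p = 0.450). RPTOR had 158 and 83.9 CPM in Rib_CA, against 98.4 and 109 CPM in DMSO. Its Rib_CA libraries lay on both sides of the DMSO libraries (log2 fold change 0.22 ± 0.35 SE; 95% interval -0.61 to 1.05; edgeR adjusted p = 0.723). RICTOR (ENSG00000164327, chr5:38937919-39074408) had 18.1 and 30.6 CPM in Rib_CA, against 65.3 and 43.1 CPM in DMSO. The groups lay apart, and the log2 fold change of -1.15 ± 0.37 (SE; 95% interval -2.04 to -0.27) did not pass (edgeR adjusted p = 0.106). RICTOR passed without Rib_CA 2 (log2 fold change -1.58; edgeR adjusted p = 0.0238) and in DESeq2 (adjusted p = 0.0214), with a range over the 15 alternatives of 0.0214 to 0.736.

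**Figure D3:**
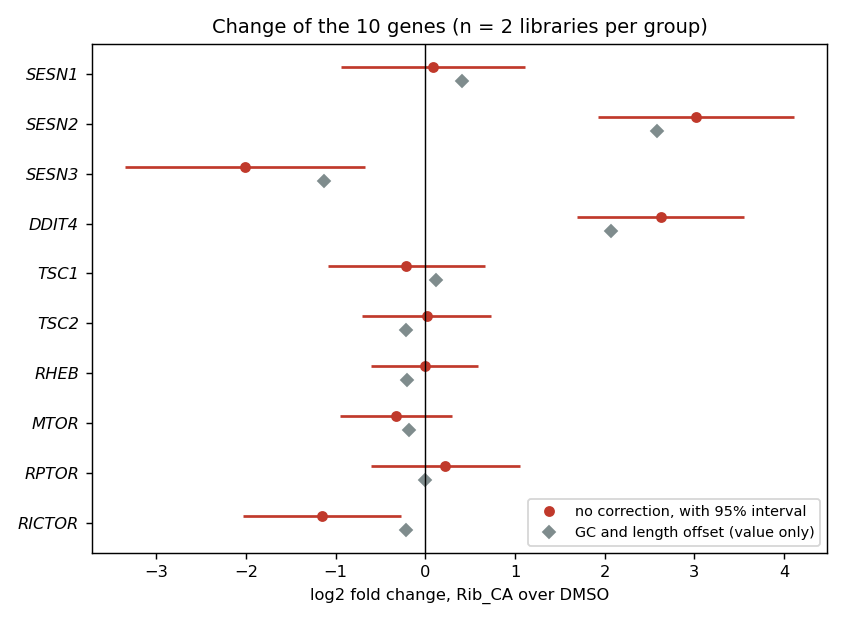
Log2 fold change of Rib_CA over DMSO (horizontal axis) for each of the 10 genes: red points with 95% intervals from the fit without correction (n = 2 libraries per group), grey diamonds the value after the correction for GC content and transcript length. Intervals of SESN2, DDIT4, SESN3 and RICTOR lie to one side of 0, and the grey value of RICTOR is -0.22.

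The direction of change over all genes ran along the GC content of their transcripts. The 2089 tested genes with 55 to 60% GC had a median log2 fold change of 0.36, and 74 of them were called higher and 2 lower. The 2176 genes under 40% GC had a median of -0.57, and 3 were called higher and 317 lower. SESN2 (59.5% GC) and DDIT4 (58.1%) belong to the first of these ranges, and SESN3 (37.1%) and RICTOR (36.5%) to the second. With an offset for GC content and transcript length in each library, 0 of 13651 genes passed in edgeR (0.0% in either direction), with 3396 at an unadjusted p under 0.05, against 3879 of 13667 before. With the offset, log2 fold changes were 2.59 for SESN2 (edgeR adjusted p = 0.0803), 2.07 for DDIT4 (0.0822) and -1.13 for SESN3 (0.177). RICTOR moved most of these 4 by ratio, to -0.22 (0.598). A true change that follows GC content or length is removed with it.

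Levels can be ranked between the 10 genes only per length. In Rib_CA the order of mean levels in CPM per kb was DDIT4 (283 ± 115), RHEB (100.3 ± 1.32), SESN2 (31.98 ± 18.7), RPTOR (18.9 ± 8.23), TSC2 (15.8 ± 4.68), MTOR (8.29 ± 1.16), TSC1 (6.25 ± 1.37), RICTOR (2.56 ± 0.924), SESN1 (1.59 ± 0.433) and SESN3 (0.758 ± 0.554; SD, n = 2 each). In DMSO it was RHEB (101 ± 7.75), DDIT4 (45.8 ± 11.4), RPTOR (16.2 ± 1.22), TSC2 (15.7 ± 2.13), MTOR (10.4 ± 1.09), TSC1 (7.23 ± 3.03), RICTOR (5.68 ± 1.65), SESN2 (3.94 ± 0.0711), SESN3 (3.06 ± 0.895) and SESN1 (1.5002 ± 0.482). SESN2 stood at place 3 of 10 in Rib_CA and at place 8 in DMSO. In Rib_CA the library values of SESN2 and RPTOR overlapped, as did those of RPTOR and TSC2. In DMSO those of RPTOR and TSC2 and of TSC1 and RICTOR overlapped. Within each Rib_CA library, SESN2 still lay above RPTOR and RPTOR above TSC2. In DMSO the order of RPTOR and TSC2, and of TSC1 and RICTOR, differed between the libraries. The differences between neighbours were not tested.

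The wider pathway around mTORC1 was read from 8 lists (sestrin and DDIT4 relatives, TSC and RHEB, subunits of both complexes, GATOR and KICSTOR, Rag and Ragulator, substrates, AMPK, and PI3K and AKT). Besides the 10 genes they held 75 genes, of which 73 were tested. Of these, 1 rose and 1 fell in edgeR, against 7.13% called among all genes. Their median log2 fold change was 0.15, against 0.03 over all genes tested, and 0.12 after the GC and length correction. PRR5 had no count in any library and INPP5D had 5 counts in Rib_CA 1 and none elsewhere, and these 2 were not tested.

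**Figure D4:**
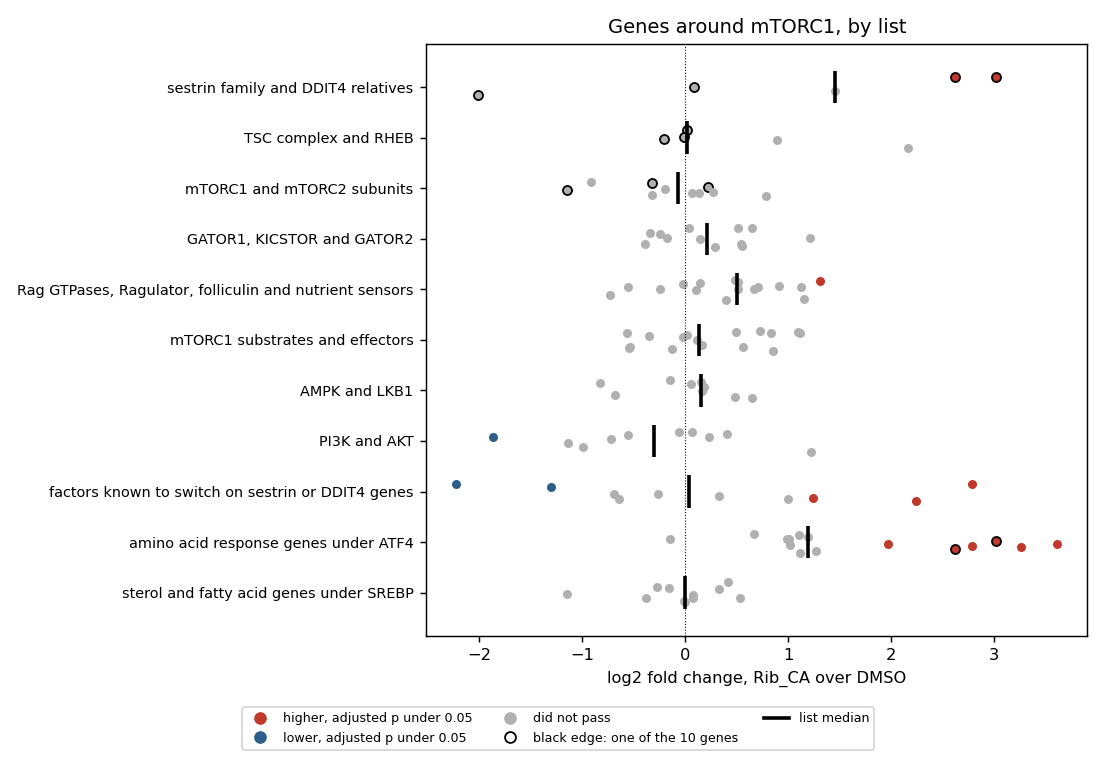
Log2 fold change of Rib_CA over DMSO (horizontal axis) for the tested genes of each list (rows); red and blue mark genes called higher and lower, grey those that did not pass, black edges the 10 genes, and vertical bars the list medians. Red points sit in 4 of the 11 lists: sestrin and DDIT4 relatives, Rag and Ragulator (FLCN), the factors, and the amino acid response. SESN2, DDIT4 and DDIT3 are drawn in more than 1 list.

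FLCN, the folliculin gene, whose product makes RRAGC and RRAGD hydrolyse GTP on the lysosome, was the 1 of 16 genes of the Rag, Ragulator and sensor list that rose, and none fell, where 2.01% of all genes tested rose and 5.11% fell. It had 127 and 100.4 CPM in the Rib_CA libraries, against 48.1 and 43.5 CPM in the DMSO libraries (2.48-fold; log2 fold change 1.31 ± 0.27 SE; edgeR adjusted p = 0.0393). The groups lay apart. The call was lost without DMSO 1 (adjusted p = 0.215) and without DMSO 2 (0.266) in edgeR, with a range over the 15 alternatives of 0.000553 to 0.266. After the GC and length correction the log2 fold change of FLCN was 1.02 (edgeR adjusted p = 0.0848). The median of the list stood at 0.50, against 0.33 after correction. Of the 16, 5 had an unadjusted p under 0.05, all higher, where 28.4% of all genes tested had one (13.7% higher and 14.7% lower). FLCN shares 11.9% of its exonic bases with a further gene of the table on the same strand.

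PIK3R1, which encodes the regulatory subunit p85 of PI3K, was the 1 of 10 tested genes of PI3K and AKT that fell, and none rose, where 5.11% of all genes tested fell and 2.01% rose. It had 13.6 and 9.08 CPM in the Rib_CA libraries, against 45.2 and 37.5 CPM in the DMSO libraries (3.64-fold lower; log2 fold change -1.86 ± 0.33 SE; edgeR adjusted p = 0.0298). The groups lay apart. The value was -1.09 after correction, and the call was lost without DMSO 1 (log2 fold change -1.73; edgeR adjusted p = 0.0984; range over the 15 alternatives 1.22e-05 to 0.164). The median of the 10 stood at -0.31, against -0.13 after correction.

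No gene outside the 10 passed in edgeR in the other 6 lists of the pathway, and the gene with the smallest p in each is given with its level. RHEBL1, a relative of RHEB, had 4.36 and 11.8 CPM in Rib_CA, against 1.87 and 1.73 CPM in DMSO (log2 fold change 2.16 ± 0.56 SE; edgeR adjusted p = 0.0663), and it passed without Rib_CA 1 (log2 fold change 2.66; adjusted p = 0.00212; range over 14 alternatives 0.00212 to 0.249). Without Rib_CA 2 its log2 fold change was 1.27 (adjusted p = 0.0668). Its Rib_CA libraries lay above both DMSO libraries and far from each other. ULK1, the autophagy kinase that mTORC1 restrains, had 77.8 and 63.8 CPM in Rib_CA, against 33.5 and 32.7 CPM in DMSO (log2 fold change 1.10 ± 0.27 SE; edgeR adjusted p = 0.0568). It passed without Rib_CA 1 (adjusted p = 0.0376) and without Rib_CA 2 (0.0206), with a range over the 15 alternatives of 0.00515 to 0.362. The DMSO libraries of ULK1 lay close together, and its Rib_CA libraries less so. AKT1S1, an inhibitory subunit of mTORC1 also called PRAS40, had 86.3 and 107 CPM in Rib_CA, against 149 and 216 CPM in DMSO (log2 fold change -0.92 ± 0.30 SE; edgeR adjusted p = 0.108), and it passed without Rib_CA 2 (adjusted p = 0.0458; range over the 15 alternatives 0.0331 to 0.615). All 3 of these genes had groups that lay apart. PRKAA1, a catalytic subunit of AMPK, had 62.2 and 73.1 CPM in Rib_CA, against 122 and 118 CPM in DMSO (log2 fold change -0.83 ± 0.25 SE, and -0.19 after correction; edgeR adjusted p = 0.0916). It passed without Rib_CA 2 (adjusted p = 0.0403; range over the 15 alternatives 0.0226 to 0.763). KICS2, of the KICSTOR scaffold of GATOR1, had 5.31 and 4.90 CPM in Rib_CA, against 2.62 and 1.79 CPM in DMSO (log2 fold change 1.21 ± 0.43 SE; edgeR adjusted p = 0.127). DDIT4L, the relative of DDIT4, had 1.66 and 3.25 CPM in Rib_CA, against 1.27 and 0.516 CPM in DMSO (log2 fold change 1.46 ± 0.65 SE; edgeR adjusted p = 0.201). Its log2 fold change was 2.24 without DMSO 1 and 0.89 without Rib_CA 2. PRKAA1, KICS2 and DDIT4L also had groups that lay apart. After correction the log2 fold change was larger in size for AKT1S1 (-1.26), KICS2 (1.59) and DDIT4L (1.78). It was smaller for RHEBL1 (1.63) and ULK1 (0.77).

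With none called in edgeR among the members outside the 10 genes, these 6 lists held the following at an unadjusted p under 0.05, where 13.7% of all genes tested were higher and 14.7% lower at that limit. DESeq2 called 7.63% of all genes higher and 11.1% lower. The mTORC1 substrates and effectors held 4 of 16 higher, and DESeq2 called 2 of them. The list of TSC and RHEB held 2 of 2 higher, RHEBL1 and TBC1D7, and DESeq2 called 1. The subunits of the complexes held 1 of 7 higher and 1 lower, and DESeq2 called 1 lower. GATOR and KICSTOR held 1 of 12 higher and AMPK 1 of 9 higher and 1 lower, of which DESeq2 called none and 1 lower. DDIT4L had an unadjusted p above 0.05. limma-voom called none in these 6 lists.

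Factors known to switch on sestrin or DDIT4 genes moved in both directions: 3 of 10 rose and 2 fell in edgeR, where 2.01% of all genes tested rose and 5.11% fell. ATF4, the main factor of the amino acid response, had 945 and 911 CPM in the Rib_CA libraries, against 414 and 371 CPM in the DMSO libraries (2.36-fold; log2 fold change 1.24 ± 0.27 SE; edgeR adjusted p = 0.0443). Its call was lost without DMSO 1 (adjusted p = 0.319) and without DMSO 2 (0.376), with a range over the 15 alternatives of 0.000222 to 0.376. After the GC and length correction the log2 fold change of ATF4 was 0.73 (edgeR adjusted p = 0.127). The ATF4 transcript level says nothing of its translation, which is known to be regulated. CEBPB, a factor that pairs with ATF4, had 241 and 275 CPM in Rib_CA, against 54.8 CPM in both DMSO libraries (4.71-fold; edgeR adjusted p = 0.0285), a call lost without DMSO 1 (adjusted p = 0.0566; range over the 15 alternatives 3.30e-12 to 0.0866). DDIT3, the stress factor CHOP, had 51.3 and 81.0 CPM in Rib_CA, against 10.6 and 8.59 CPM in DMSO (6.89-fold; edgeR adjusted p = 0.0285). The groups of all 3 risen factors lay apart. With the GC and length offset the log2 fold change went from 2.24 to 1.58 for CEBPB and from 2.78 to 2.38 for DDIT3 (edgeR adjusted p = 0.0803 for each). MARS1, on the opposite strand, overlaps 27.2% of the exonic bases of DDIT3. HIF1A, a hypoxia factor, had 201 and 89.3 CPM in Rib_CA, against 662 and 694 CPM in DMSO. It was 4.67-fold lower (log2 fold change -2.22 ± 0.42 SE, edgeR adjusted p = 0.0342). Both Rib_CA libraries lay far below the DMSO libraries. HIF1A was 7.83-fold lower without Rib_CA 1 and 3.38-fold lower without Rib_CA 2. With the GC and length offset its log2 fold change was -1.51 (edgeR adjusted p = 0.177). Over the 15 alternatives its adjusted p ran from 5.94e-06 to 0.183. NFE2L2, the factor of the oxidative stress response, had 47.9 and 35.1 CPM in Rib_CA, against 106 and 99.7 CPM in DMSO (2.48-fold lower; edgeR adjusted p = 0.0432). Its call was lost without DMSO 1 (adjusted p = 0.219), without DMSO 2 (0.168) and with total-count scaling (0.0698), with a range over the 15 alternatives of 0.000723 to 0.219. With the offset the log2 fold change of NFE2L2 went from -1.31 to -1.20 (edgeR adjusted p = 0.0884). HIF1A and NFE2L2 were the 2 factors that fell. FOXO1 and FOXO3 had log2 fold changes of -0.26 and 0.33 and were not called. EPAS1, also a hypoxia factor, had 91.4 and 139 CPM in Rib_CA, against 58.1 and 56.9 CPM in DMSO. Its Rib_CA libraries lay above both DMSO libraries, opposite to HIF1A, but it was not called in edgeR (adjusted p = 0.087). DESeq2 called EPAS1 as higher (adjusted p = 0.023). With the GC and length offset its log2 fold change was 0.92 (edgeR adjusted p = 0.143). The median of the 10 factors stood at 0.03, against 0.32 after correction.

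Beside SESN2 and DDIT4, 13 further genes of the amino acid response under ATF4 were tested, and 4 rose and none fell in edgeR, where 2.01% of all genes tested rose and 5.11% fell. They were TRIB3, CHAC1, SLC3A2 and DDIT3, which is counted among the factors as well. SLC3A2 encodes the shared chain of amino acid transporters, TRIB3 a pseudokinase that binds AKT, and CHAC1 an enzyme that breaks down glutathione. TRIB3 had 312 and 235 CPM in Rib_CA, against 33.2 and 23.9 CPM in DMSO (9.57-fold; edgeR adjusted p = 0.0285). CHAC1 had 37.2 and 27.7 CPM in Rib_CA, against 1.90 and 3.40 CPM in DMSO (12.2-fold, edgeR adjusted p = 0.0285). With the GC and length offset, the log2 fold change was 2.73 for TRIB3 and 2.95 for CHAC1 (edgeR adjusted p = 0.0803 for each). Both genes lay apart between the groups and kept their calls with any 1 library left out. SLC3A2 had 507 and 681 CPM in the Rib_CA libraries, against 138 and 166 CPM in the DMSO libraries (3.91-fold; edgeR adjusted p = 0.0285), a call lost without DMSO 1 (adjusted p = 0.135) and without DMSO 2 (0.0601; range over the 15 alternatives 7.09e-08 to 0.135). The log2 fold change of SLC3A2 went from 1.97 to 1.51 with the GC and length offset (edgeR adjusted p = 0.0810). The median log2 fold change of the 13 was 1.12, against 0.03 over all genes tested, and 1.496 after correction. ASNS, which makes asparagine, had a log2 fold change of 1.12 ± 0.26 (SE; edgeR adjusted p = 0.0543), and PSAT1, of serine synthesis, 1.27 ± 0.33 (edgeR adjusted p = 0.0660). SESN2, at 3.02, stood between DDIT3 at 2.78 and TRIB3 at 3.26 on the log2 scale, and the differences between these genes were not tested.

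**Figure D5:**
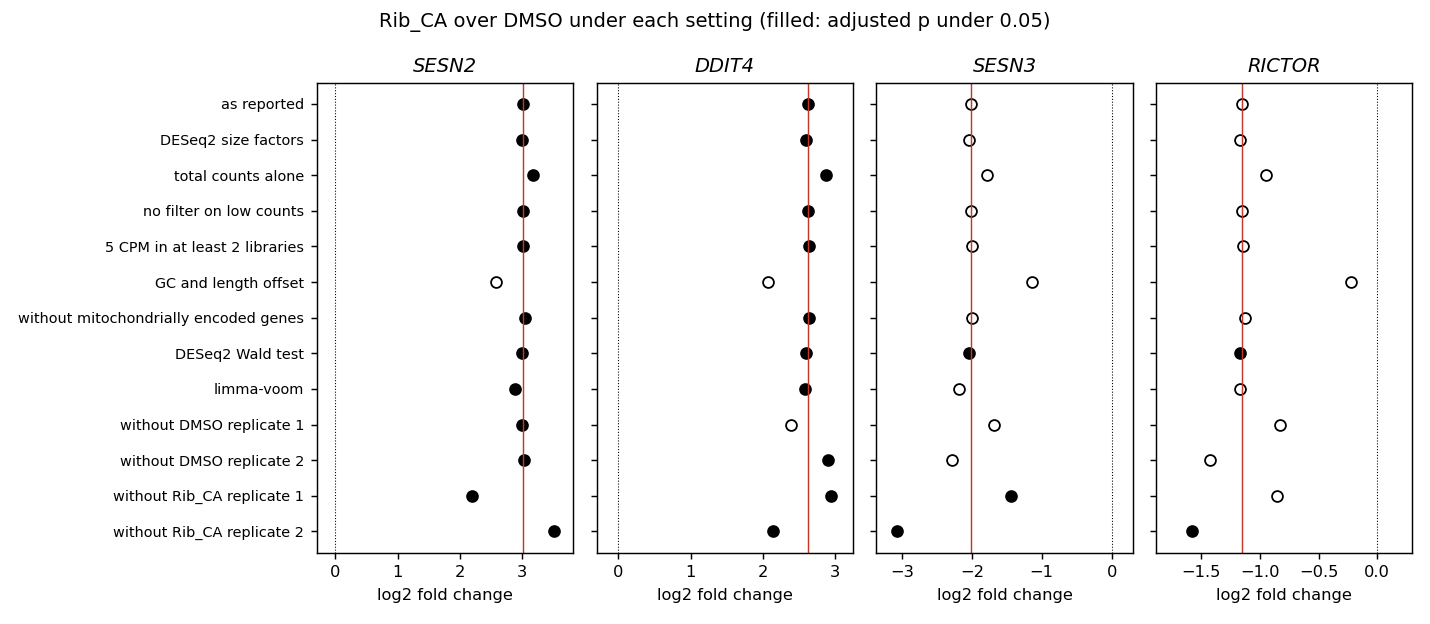
Log2 fold change of Rib_CA over DMSO (horizontal axis, one scale per panel) for SESN2, DDIT4, SESN3 and RICTOR under each processing setting (rows); filled points have an adjusted p under 0.05, and red lines mark the values as reported. SESN2 lies between 2.20 and 3.52 with 1 library left out, and the GC and length correction gives the smallest change of DDIT4, SESN3 and RICTOR.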

How the data were processed

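RNA-seq of 4 MDA-MB-231 libraries was analysed, 2 per group, grouped by their titles. The table the authors deposited holds raw counts, whole numbers without normalization. RNA was purified on RNeasy columns and made into mRNA libraries with a Hieff NGS kit, per the labels' protocols. Mouse builds (GRCm38, mm10) stand in the submitters' processing notes, while every row is a human Ensembl ID, so the build behind the counts is not settled. No source used here names the aligner, the counter or the strand setting. Among counts of 1 to 10, 67.7 to 70.7% were even, as when both mates of a pair are counted, so counting intervals and floors are too narrow. Symbols were found for 20148 IDs. Gene limits, transcript lengths and GC contents came from GENCODE release 29 (GRCh38, 20224 IDs), promoter windows from RefSeq.

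Genes passing filterByExpr (min.count 10, min.total.count 15) were scaled by TMM and tested with edgeR 4.0.16 (glmQLFit, robust, glmQLFTest; R 4.3.3; 2 residual degrees of freedom), with Benjamini-Hochberg adjustment over 13667 genes at 0.05. SE is the absolute log2 fold change over the root of F, and 95% intervals use the test's t quantile. The fit was also run on counts simulated with a common dispersion and no GC trend, so that run does not speak to the GC trend seen here. Alternatives were DESeq2 1.42.0 and its size factors, limma 3.58.1 voom, total counts, no filter, 5 CPM in 2 libraries, each library left out (the lone library is assumed to vary like the other group), no mitochondrial genes, the replicate number as a block, and an offset from a smooth of each library's log2 CPM deviations over GC content and transcript length (mgcv 1.9.3, 6 basis functions). The 10 genes and all lists were chosen with earlier results of these data known. Named are the 10 genes, every called member of a list, and, where a list had none outside the 10, its member of smallest p. FOXO1, FOXO3, EPAS1, TBC1D7, ASNS, PSAT1, PRR5 and INPP5D were added after their values were seen. Of the lists fixed at the start, 2 members are not reported here and were left out of every count. Figures used matplotlib 3.10.9.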

Additional observations from a re-analysis of the deposited data

How the results depend on the processing

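Of the 10 genes, SESN2 and DDIT4 were higher and none was lower in edgeR, and SESN2, DDIT4, SESN3, MTOR and RICTOR kept their sign in all 15 alternatives (14 planned and a crossed block). Without 1 library, 1 to 2 of the 10 were called higher and 0 to 2 lower. With the GC and length offset 0 were higher, and 0 also with that offset and the replicate block; DESeq2 called 2 lower. Over all genes, 275 were higher and 699 lower. The higher count was 448 without a filter on low counts and 418 with 5 CPM in at least 2 libraries. The lower count was 328 with total counts alone. DESeq2 called 1043 higher and 1514 lower. With the GC and length offset, with or without the replicate block, 0 were higher and 0 lower. Without 1 library, 36 to 1234 were higher and 137 to 1634 lower. The cause of these shifts was not tested. 

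The replicate numbers share only a label: the deviations of same-numbered libraries had a correlation of -0.186 across genes. With the replicate block 260 genes were higher and 687 lower, and of the 10 genes SESN2 and DDIT4 were higher and 1 was lower, SESN3 (-2.19, adjusted p = 0.0320), while ATF4 lost its call (adjusted p = 0.0788). A crossed replicate block, chosen after seeing the data, gave 724 higher and 1267 lower, and 2 of the 10 lower.

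Signs reversed for genes that were not called. The log2 fold change of TSC1 was 0.0319 with total counts, 0.11 with the GC and length offset and 0.15 with that offset and the replicate block. TSC2 was -0.00275 with DESeq2 size factors and in DESeq2, -0.0110 in limma-voom, -0.21 with the offset (-0.212 with the block too), -0.0108 with the replicate block and -0.0107 with the crossed one. RPTOR was -0.00697 with the offset and -0.0308 with the offset and block. RHEB was 0.195 with total counts and 0.00896 without mitochondrially encoded genes. With 1 library left out, the log2 fold change ranged from -0.22 to 0.45 for SESN1, from -0.59 to 0.29 for TSC1, from -0.37 to 0.29 for TSC2, from -0.35 to 0.61 for RPTOR and from -0.0911 to 0.0685 for RHEB. The lowest count of any of the 10 genes in a library was 134, and what depth or more libraries would change was not tested.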

Other observations

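Ratios within a library need no scaling between libraries. Per kb, DDIT4 lay at 1.99 and 3.66 times the level of RHEB in the Rib_CA libraries, against 0.395 and 0.506 times in the DMSO libraries. SESN2 lay at 124 and 16.3 times the level of SESN3 in Rib_CA, against 1.05 and 1.64 times in DMSO. In both ratios the groups lay apart, and they restate differences given above. The ratio of DDIT4 to SESN2 did not separate the groups: it was 4.45 and 19.4 in Rib_CA, against 9.70 and 13.5 in DMSO. RPTOR to RICTOR stood at 13.003 and 4.08 in Rib_CA, against 2.24 and 3.78 in DMSO, so the groups lay apart here too. RPTOR has 59.8% GC and RICTOR 36.5%. None of these ratios was tested, and none was corrected for GC content.

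Genes of sterol and fatty acid synthesis under SREBP, which mTORC1 activity is known to favour, showed no called change in edgeR or limma-voom: 11 were tested, with a median log2 fold change of -0.000132 and 1 at an unadjusted p under 0.05, where 7.13% of all genes tested were called in edgeR and 28.4% had such a p. That gene was ACACA, which encodes acetyl-CoA carboxylase, the committing step of fatty acid synthesis. It had 78.3 and 61.0 CPM in the Rib_CA libraries, against 161 and 147 CPM in the DMSO libraries (log2 fold change -1.14 ± 0.26 SE, and -0.77 after the GC and length correction; edgeR adjusted p = 0.0516). The groups lay apart, and DESeq2 called it (adjusted p = 0.00223; range over the 15 alternatives 0.00223 to 0.297). SREBF1 and SREBF2, singled out after their values were seen, had log2 fold changes of 0.42 and 0.54 and were not called.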
